A study of Mus musculus with 16 samples.

Results

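Proteins made in the endoplasmic reticulum (ER) reach the Golgi in coated vesicles, and the 40 genes described here encode the core of that traffic. They were fixed as a list of symbols: 12 genes of the COPII coat, 10 of the COPI coat, 10 cargo and retrieval receptors, and 8 tethers and SNAREs. A probe set (the group of probes that reads 1 transcript) was used only where the array annotation gives 1 listed gene alone, and each gene is shown by its probe set of highest mean over the 16 arrays. All 40 listed genes had such a probe set, out of 18193 genes named on the array.

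The samples are 6 Eμ-xbp-1s MM (multiple myeloma) samples, B220+ splenic B cells of Eμ-xbp-1s mice aged 20 weeks (5 arrays) and B220+ splenic B cells of nontransgenic control mice aged 20 weeks (5 arrays). The age behind each MM array is not stated, but the study describes MM only in aged Eμ-xbp-1s mice, much older than the mice that gave B cells, so age and MM cannot be told apart in the MM comparisons. The transgene carries the spliced form of mouse Xbp1, followed by eGFP, behind the immunoglobulin VH promoter and the Eμ enhancer, elements that are active in B lineage cells and in some T cells. All mice were on the C57BL/6 background, and which of its founder lines gave each array is not stated. B220+ cells were taken with magnetic beads. The B cell arrays stand for 5 mice in each group by the study's account. No sort is stated for the MM tumors, and nothing says that the 6 came from separate mice, so the p-values may measure a spread that is in part technical. Intensities are the authors' model-based values on a linear scale, made comparable between arrays by scaling to a single baseline array.

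In the forward direction, the COPII coat gathers cargo at ER exit sites. The GTPase SAR1 starts coat assembly, SEC23 and SEC24 form the inner layer that selects cargo, and SEC13 and SEC31 form the outer cage. The COPI coat, recruited by ARF GTPases, carries escaped ER proteins and receptors back. KDEL receptors return chaperones, and SNARE proteins with their tethers let each vesicle fuse. Plasma cells, which secrete antibody in bulk, need a large secretory apparatus, and the spliced XBP1 protein is known to turn on many genes of it. XBP1 binds elements that include the sequence TGACGTGG, the core of the unfolded protein response element (UPRE), and elements built on CCAAT and CCACG, the ER stress response element (ERSE).

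The promoter windows of the listed genes are shown because the transgene encodes a factor that binds such elements. RefSeq windows (assembly GRCm38.p6, 250 bases before to 50 bases after a start site) matched 33 of the 40 genes. The UPRE core, searched on both strands, lay in the windows of 7 of the 33, or 21.2%, and in 0.714% of 27025 genes with a window, 0.990% of 14452 genes also named on the array and 1.12% of 9205 genes tested on these arrays. A further 67 genes of the same pathway held it in 4.48%. The core contains CCACG on its other strand, and CCACG by itself lay in 75.8% of the 33, against 50.7% of the tested genes. CCAAT lay in 42.4% of the 33 and 42.3% of the tested genes. The ERSE (CCAAT, any 9 bases, CCACG) and the ERSE-II (ATTGG, any 1 base, CCACG) lay in 0 of the 33, and in 0.163% and 0.0869% of the tested genes. These shares are descriptions of letters in a window, not of binding.

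The windows around the core are given 5′ to 3′ on the gene's own strand, with the core (TGACGTGG, or CCACGTCA where it is read on the other strand) in capitals. The core lies 19 to 26 bases before the start site in Sec24d, 21 to 28 before it in Copb1 and 23 to 30 before it in Kdelr3. In Copb2 it runs from 7 bases before the start site to the first base of the transcript. In Sec23a it covers bases 7 to 14 of the transcript and in Stx5a bases 10 to 17. Arf1 has 2 start sites in the table, and the same core lies 77 to 84 bases before 1 of them and at bases 22 to 29 after the other.
Sec24d, chr3:123267444-123267495, plus strand: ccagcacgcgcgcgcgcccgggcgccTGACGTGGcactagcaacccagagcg
Kdelr3, chr15:79516352-79516407, plus strand: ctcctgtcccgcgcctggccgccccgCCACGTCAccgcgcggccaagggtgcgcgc
Copb1, chr7:114254681-114254734, minus strand: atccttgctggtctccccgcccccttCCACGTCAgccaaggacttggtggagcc
Copb2, chr9:98563713-98563742, plus strand: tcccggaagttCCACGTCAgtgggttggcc
Arf1, chr11:59228228-59228257, minus strand: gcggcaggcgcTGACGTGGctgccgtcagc
Sec23a, chr12:59011993-59012022, minus strand: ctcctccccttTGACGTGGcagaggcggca
Stx5a, chr19:8741422-8741451, plus strand: tggcgcagcagCCACGTCAccgagttagga

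Array medians were 69.3 to 82.9 in MM samples and 70.8 to 73.0 in nontransgenic B cells. The plasma cell marker Sdc1 lay at 110.3 to 264 in MM samples, against 141 to 246 in nontransgenic B cells, and of 7 plasma cell genes tested between these groups 0 were higher and 1 lower in MM samples. Of the marker lists, T cell genes passed the test as higher in Eμ-xbp-1s than in nontransgenic B cells for 6 of 7 (summed intensity 5503 to 6914, against 1268 to 1579), NK cell genes for 4 of 5 (3494 to 4775, against 821 to 1156), neutrophil genes for 4 of 6 (8966 to 27510, against 675 to 1466) and macrophage genes for 2 of 7 (6212 to 11830, against 2431 to 4064). Mature B cell genes summed to 712 to 13650 in MM samples, 13300 to 26680 in Eμ-xbp-1s and 31560 to 34810 in nontransgenic B cells, and 4 of 8 were lower in MM samples than in nontransgenic B cells. Against the same cells, 5 of 6 stromal genes (4437 to 11560, against 254.5 to 401) and 4 of 5 mitosis genes (2395 to 15240, against 782 to 2205) were higher in MM samples. Lists also differed between arrays of a group. In MM replicates 1 to 3 T cell genes summed to 2957 to 3945 and NK cell genes to 3133 to 5962. In MM replicates 4 to 6 these sums were 601 to 995 and 749 to 1350. Mature B cell genes summed to 1386 and 712 in MM replicates 4 and 5 and to 6150 to 13650 in the other MM samples. The neutrophil sum was 27510 in Eμ-xbp-1s replicate 5 and 8966 to 11240 in the other Eμ-xbp-1s arrays. Neutrophil genes summed to 60550 and 45640 in MM replicates 4 and 5 and to 573 to 1514 in the other MM samples, and erythroid genes to 13920 and 19310 in MM replicates 4 and 5 and to 126 to 228 in the other MM samples. In Eμ-xbp-1s B cells the erythroid sum was 8123 in replicate 3 and 767 to 1655 in the others, against 156 to 338 in nontransgenic B cells, and 1 of 3 erythroid genes tested was higher. The lowest deposited intensity was 1.0, so no marker gene could read 0, and a value above 0 does not show that a gene was detected. The ratio of the 5′ to the 3′ Gapdh control probe set, which falls when RNA is degraded, was 0.667 to 1.07 in MM samples, 0.414 to 1.09 in Eμ-xbp-1s B cells and 1.08 to 1.15 in nontransgenic B cells. The part of these differences in the results below was not tested, and in such bulk samples fewer cells of a type and less RNA per cell cannot be told apart.

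None of the listed genes passed the test in any comparison. With Eμ-xbp-1s set against nontransgenic B cells, 37 of the 40 could be tested and 0 were higher and 0 lower at a limma adjusted p under 0.01, beside 2.75% and 0.481% of the 20596 probe sets tested. At an adjusted p under 0.05 the retrieval receptor Kdelr1 was the single gene higher and none was lower (background 4.97% and 1.88%). At an unadjusted p under 0.05, 5 genes were higher (Sec24d, Kdelr1, Lman1, Tmed10 and Gosr2) and 0 lower, which is 5 of 37 beside a background of 10.6% and 9.47%. Groups did not overlap for Kdelr1 alone, beside 8.96% of probe sets. The median log2 ratio (the log2 fold change fitted by limma, first-named group over the second) of the 37 genes was 0.01, against -0.02 over 10436 genes tested. For 36 of the 37 the 95% interval of the log2 ratio lay within 1 of zero, Ykt6 being the exception, so that a 2-fold change is outside the interval for these 36.

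In MM samples against Eμ-xbp-1s B cells, 38 genes could be tested, and 0 were higher and 0 lower at an adjusted p under 0.01, beside 1.28% and 1.91% of 22194 probe sets. At an adjusted p under 0.05, 0 were higher and 1, again Kdelr1, was lower (background 4.32% and 6.28%). At an unadjusted p under 0.05, Arf1 was higher and Kdelr1 lower (background 11.4% and 15.2%), and for none of the 38 did the groups fail to overlap (background 8.05%). The median log2 ratio was 0.02, against 0.01 over 11241 genes. The 95% interval lay within 1 of zero for 32 of 38, the others being Sec24a, Sec24b, Sec24c, Sec24d, Kdelr1 and Ykt6.

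In MM samples against nontransgenic B cells, the count was again 0 higher and 0 lower of 38, in the comparison with the most calls elsewhere (3.95% and 5.65% of 21894 probe sets). At an adjusted p under 0.05, 2 genes were higher, Sec24d and Mcfd2, and 0 lower (background 8.75% and 12.4%). At an unadjusted p under 0.05, 5 were higher (Sec24d, Arf1, Arfgap3, Lman1 and Mcfd2) and 1, Sec16a, was lower (background 15.1% and 20.2%). Groups did not overlap for Mcfd2 and Sec16a, 2 of 38 beside a background of 15.8%. The median log2 ratio was -0.04, against 0.01 over 11079 genes. The interval lay within 1 of zero for 32 of 38, all but Sec24b, Sec24c, Sec24d, Kdelr1, Lman1 and Mcfd2. The 3 comparisons share arrays in pairs, so each gene's values are set side by side below and no overlap between comparisons was computed.

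**Figure D1:**
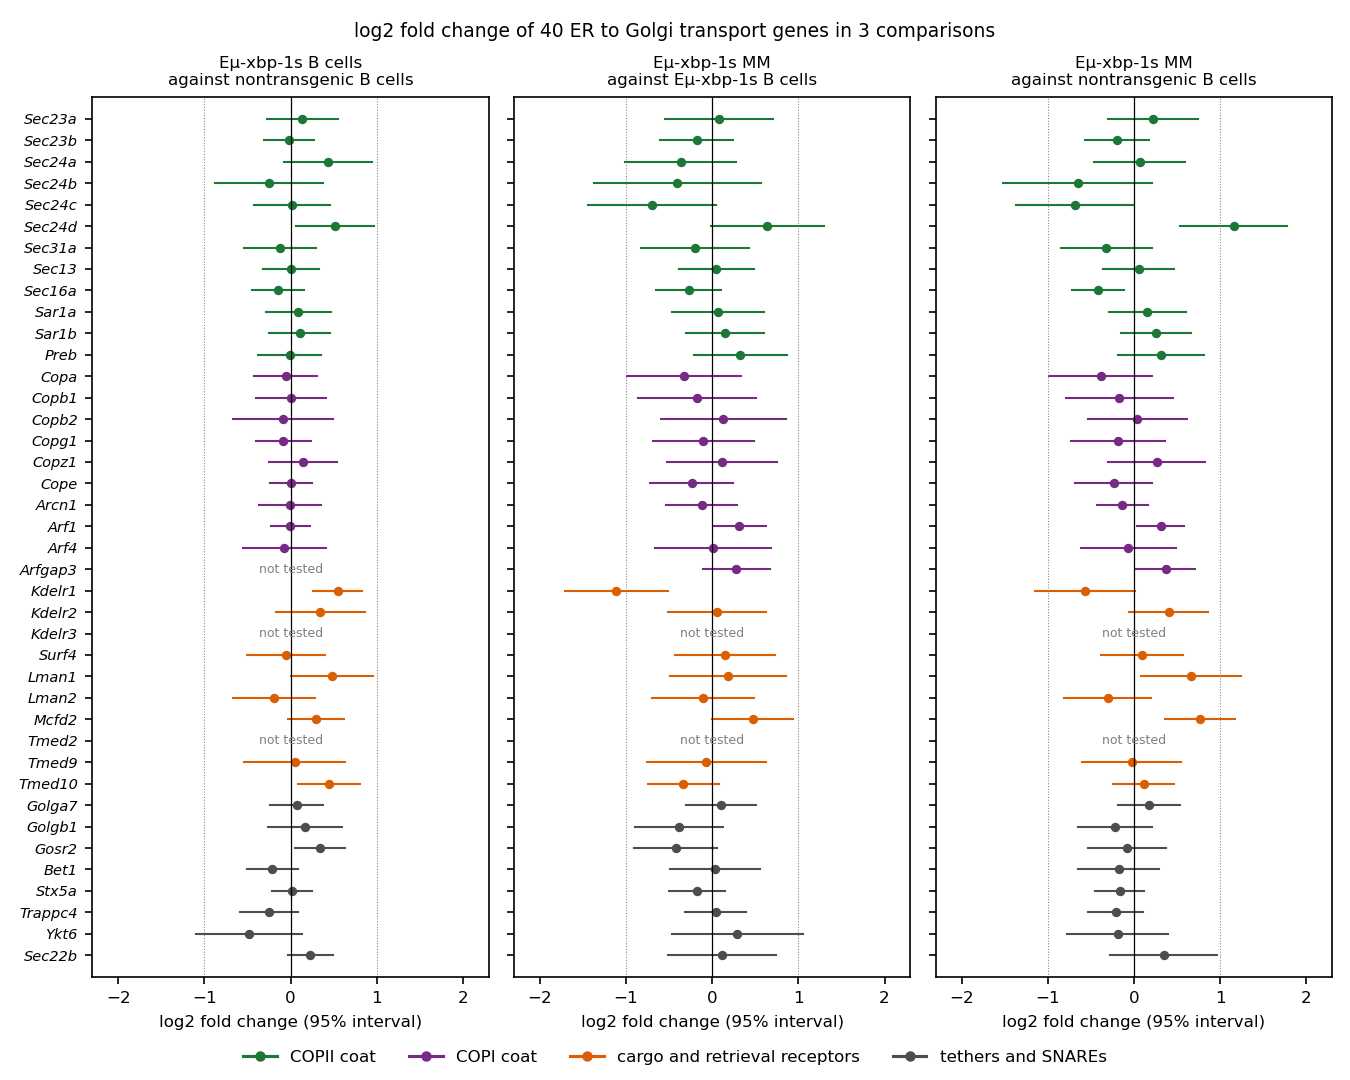
Points are log2 fold changes of the 40 ER to Golgi transport genes (rows, coloured by role) with 95% intervals as lines, 1 panel per comparison, and dotted lines mark a log2 fold change of 1 in size. In the Eμ-xbp-1s B cell panel 36 of 37 intervals lie inside the dotted lines, and in the MM panels 32 of 38, with Kdelr1 and Sec24d farthest from zero.

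The genes with the lowest adjusted p-values were the receptor Mcfd2, the COPII gene Sec24d and the receptor Kdelr1. Of the 8 cargo and retrieval receptors tested for Eμ-xbp-1s over nontransgenic B cells, 6 had positive log2 ratios, with a median of 0.32. The median was -0.01 in MM samples against Eμ-xbp-1s B cells and 0.10 in MM samples against nontransgenic B cells. Values on every array are given here and below for the 4 genes of each role with the highest mean; the others named with values were chosen after these had been seen. Log2 ratios and their ranges are of the probe set of highest mean unless another is named, and further probe sets of a gene can lie outside them.

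Kdelr1 encodes a KDEL receptor, which binds chaperones that have escaped to the Golgi and returns them to the ER. Its intensity was 266, 451, 639, 276, 190.2 and 299.9 in MM samples 1 to 6, 826.5, 765, 611, 715 and 632 in Eμ-xbp-1s B cells, and 474, 559.7, 496, 486 and 412 in nontransgenic B cells. Every Eμ-xbp-1s array stood above every nontransgenic array, while 5 of the 6 MM samples lay below the lowest Eμ-xbp-1s array and MM replicate 3 lay within their range. The means were 353.8 ± 164.0 in MM samples (SD, n = 6), 709.9 ± 90.1 in Eμ-xbp-1s and 485.6 ± 52.9 in nontransgenic B cells (SD, n = 5 each). The log2 ratio was 0.55 for Eμ-xbp-1s over nontransgenic B cells (standard error 0.13, limma adjusted p = 0.0279). In MM samples against Eμ-xbp-1s B cells it was -1.11 (standard error 0.28, adjusted p = 0.0243), and against nontransgenic B cells -0.57 (adjusted p = 0.152). Kdelr1 thus did not pass the threshold in any of these fits. With single arrays left out, the adjusted p for MM samples against Eμ-xbp-1s B cells ran from 0.00407 (without MM replicate 3, the highest MM array, log2 ratio -1.31) to 0.0645 (without Eμ-xbp-1s replicate 1, -1.05). It was 0.0661 without MM replicates 4 and 5, the arrays of high neutrophil and erythroid sums (-0.86), and 0.136 without the arrays of low Gapdh ratio (-0.95). For Eμ-xbp-1s over nontransgenic B cells it ran from 0.0167 to 0.0855 with single arrays left out, and it was 0.401 with all 3 groups in a single fit.

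Kdelr2, a second KDEL receptor, had other values. It lay at 564 to 1154 in MM samples (median 729.9), at 531, 497, 924, 919.6 and 1069 in Eμ-xbp-1s B cells and at 466, 487, 727, 689 and 636 in nontransgenic B cells. In both groups of B cells replicates 1 and 2 were low and replicates 3 to 5 high, and the groups overlapped. Its log2 ratio was 0.35 for Eμ-xbp-1s over nontransgenic B cells (adjusted p = 0.467, or 0.147 with the replicate number as a block), 0.06 in MM samples against Eμ-xbp-1s B cells and 0.40 against nontransgenic B cells (adjusted p = 0.193). Kdelr3, the third receptor of the family, was read by a probe set at 27.1 to 76.6 in MM samples, 14.7 to 23.2 in Eμ-xbp-1s and 13.3 to 25.8 in nontransgenic B cells. Each MM value lay above each B cell value for Kdelr3, but all stayed below the level of 100 needed for the test, so no fold change is given.

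The lectin Lman1 (ERGIC-53) and its partner Mcfd2 form a receptor that in humans carries blood coagulation factors out of the ER. Mcfd2 lay at 379.8, 463, 539.6, 679, 315 and 433 in MM samples, at 323, 329, 236, 383 and 398 in Eμ-xbp-1s B cells, and at 241, 276, 265, 278 and 279 in nontransgenic B cells. All 6 MM samples stood above all 5 nontransgenic arrays, and the Eμ-xbp-1s arrays overlapped both. The log2 ratio of Mcfd2 was 0.76 in MM samples against nontransgenic B cells (standard error 0.19, adjusted p = 0.0127), 0.47 against Eμ-xbp-1s B cells (adjusted p = 0.194), and 0.30 for Eμ-xbp-1s over nontransgenic B cells (adjusted p = 0.301). With single arrays left out, the adjusted p of the first of these ran from 0.00453 (without MM replicate 5, the lowest MM array, log2 ratio 0.87) to 0.0383 (without nontransgenic replicate 1, 0.73). Leaving out any other array did not take Mcfd2 past the threshold.

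Lman1 itself lay at 371, 368, 556, 253.5, 214 and 181 in MM samples, at 265, 213, 460.3, 191 and 263 in Eμ-xbp-1s B cells, and at 161, 228, 188, 213 and 168 in nontransgenic B cells. MM replicates 1 to 3 and Eμ-xbp-1s replicate 3 were the high arrays, and all 3 groups overlapped. Its log2 ratio was 0.66 in MM samples against nontransgenic B cells (adjusted p = 0.0951), 0.19 against Eμ-xbp-1s B cells and 0.48 for Eμ-xbp-1s over nontransgenic B cells (adjusted p = 0.248). Lman1 has 4 further probe sets, and they did not give the same value. For Eμ-xbp-1s over nontransgenic B cells their log2 ratios were 0.85 (adjusted p = 0.0138), 0.42 (0.353), 0.28 (0.281) and 0.02 (0.972).

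The p24 proteins Tmed9 and Tmed10 help sort cargo between the ER and the Golgi. Tmed10 lay at 427 to 652 in MM samples (median 525), at 758.5, 641, 473, 713 and 809 in Eμ-xbp-1s B cells and at 396, 479.7, 497, 569 and 525 in nontransgenic B cells. In 4 of 5 Eμ-xbp-1s arrays Tmed10 was above every nontransgenic array, replicate 3 being the exception, and its log2 ratio was 0.45 (standard error 0.16, adjusted p = 0.145). Tmed9 lay at 519 to 1336 in MM samples (median 871.5), at 1504, 1183, 673, 769 and 555 in Eμ-xbp-1s B cells and at 1126, 1017, 702, 814 and 664 in nontransgenic B cells. It was highest in replicates 1 and 2 of both groups of B cells, and its 3 log2 ratios were -0.07, -0.02 and 0.05. Surf4, a receptor for soluble cargo, and Lman2, a lectin related to Lman1, had log2 ratios between -0.30 and 0.15 over the 3 comparisons. The further probe sets of Surf4 gave 0.54, 0.42, -0.03 and -0.06 for Eμ-xbp-1s over nontransgenic B cells (limma adjusted p = 0.0707, 0.114, 0.966 and 0.909). Tmed2 was read at 7.45 to 47.7 over the 16 arrays and was not tested.

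**Figure D2:**
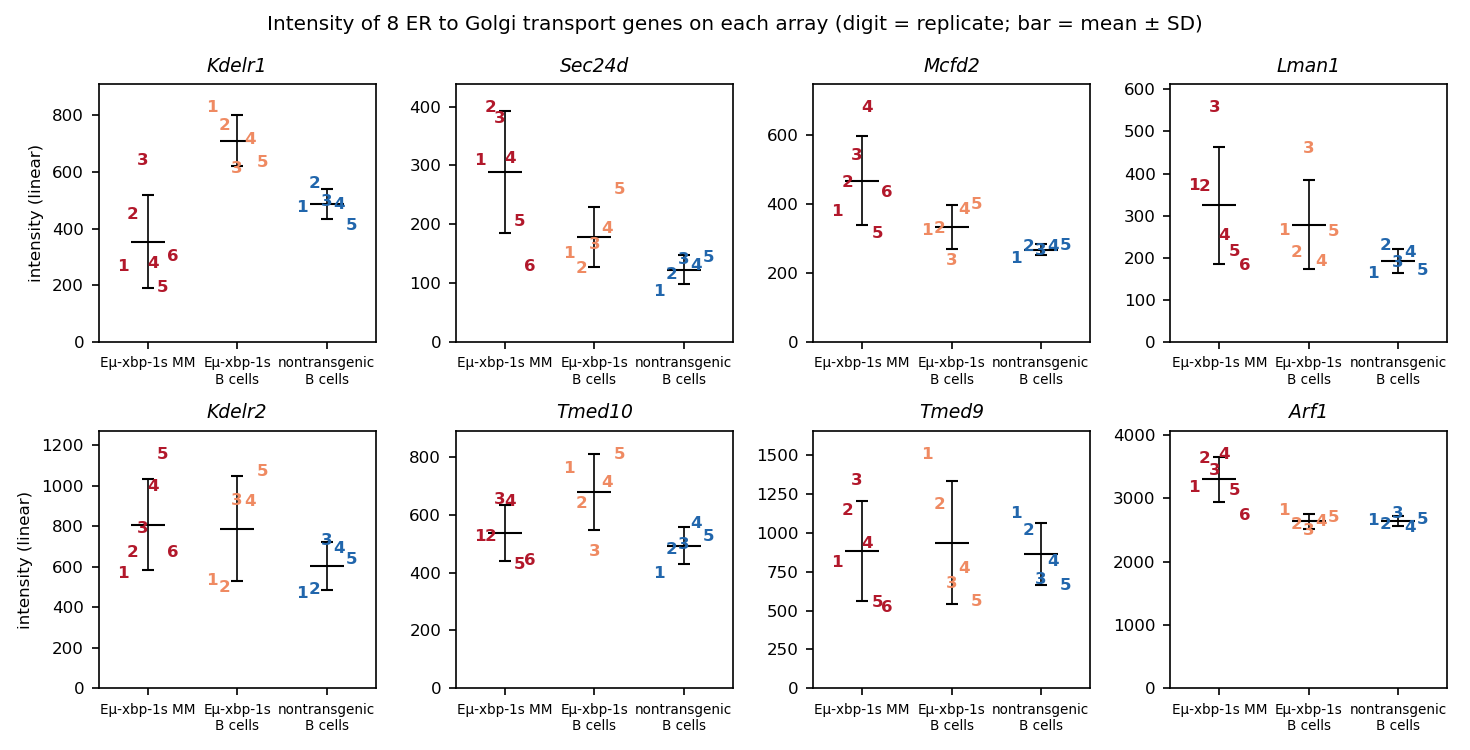
Each digit is an array (its replicate number) at its intensity on a linear axis from 0, for 8 genes, with MM samples at the left, Eμ-xbp-1s B cells in the middle and nontransgenic B cells at the right; the line and bars are the mean and SD. Kdelr1 shows all 5 Eμ-xbp-1s arrays (611 to 826.5) above all nontransgenic arrays (412 to 559.7), Sec24d and Mcfd2 are highest in MM samples, and in Kdelr2 and Tmed9 replicates 1 and 2 part from 3 to 5 in both groups of B cells.

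In the COPII coat the 4 forms of SEC24, the subunit that binds the sorting signals of cargo, did not lie on the same side of zero. Sec24d was at 308, 398, 380.5, 312, 204.5 and 128 in MM samples, at 149.5, 125, 165, 192 and 259 in Eμ-xbp-1s B cells, and at 84.8, 115, 140.1, 130.3 and 144 in nontransgenic B cells. MM replicates 1 to 5 stood above every nontransgenic array, and replicate 6 lay within their range. The means were 288.5 ± 104.1 (SD, n = 6) in MM samples and 122.8 ± 24.0 (SD, n = 5) in nontransgenic B cells. The fitted log2 ratio between these groups was 1.16, or 2.23-fold (standard error 0.29, limma adjusted p = 0.0133). Against Eμ-xbp-1s B cells the log2 ratio was 0.64 (adjusted p = 0.198), and for Eμ-xbp-1s over nontransgenic B cells it was 0.52 (adjusted p = 0.189). With single arrays left out, the adjusted p against nontransgenic B cells ran from 0.000987 (without MM replicate 6, the lowest MM array, log2 ratio 1.37) to 0.0416 (without nontransgenic replicate 1, 1.03). Leaving out any array but MM replicate 6 did not take Sec24d past the threshold. Sec24d is also the COPII gene with the UPRE core upstream of its start site, printed above.

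The other SEC24 genes did not pass in any comparison. Sec24c lay at 579, 795, 892, 446, 368 and 224 in MM samples, at 1147, 1048, 608, 771 and 603 in Eμ-xbp-1s B cells and at 873, 965, 694, 797 and 689.7 in nontransgenic B cells. MM replicates 1 and 4 to 6 were below all B cell arrays, while MM replicates 2 and 3 lay among them, and the log2 ratios of -0.70 against Eμ-xbp-1s (adjusted p = 0.218) and -0.68 against nontransgenic B cells (adjusted p = 0.143) did not pass. Sec24b lay at 60.6 to 311 in MM samples, 125.5 to 369 in Eμ-xbp-1s B cells and 214 to 359.7 in nontransgenic B cells, with log2 ratios of -0.40 and -0.65 for MM samples against these groups (adjusted p = 0.603 and 0.265). Sec24a lay at 156 to 385 in MM samples, 209 to 512 in Eμ-xbp-1s B cells and 183 to 281 in nontransgenic B cells, and its log2 ratio was 0.43 for Eμ-xbp-1s over nontransgenic B cells (adjusted p = 0.341).

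Preb, the exchange factor that loads SAR1 with GTP, had the highest mean of the COPII genes. It lay at 1015, 1134, 1089, 2022, 2142 and 1810 in MM samples, at 853, 1110, 1389, 1121 and 1473 in Eμ-xbp-1s B cells and at 1000, 1051, 1224, 1212 and 1429 in nontransgenic B cells. MM replicates 4 to 6 stood above every B cell array and MM replicates 1 to 3 lay within their range; replicates 4 and 5 are also those of high neutrophil and erythroid sums, whose part was not tested. The log2 ratio of Preb, 0.32 against nontransgenic B cells, had an adjusted p of 0.35. A dimmer probe set of Preb gave 0.18 there (limma adjusted p = 0.567). It gave -0.52 in MM samples against Eμ-xbp-1s B cells (0.282), where the brighter one gave 0.33. For Eμ-xbp-1s over nontransgenic B cells it gave 0.70 (0.195), where the brighter one gave -0.01. Sar1b, a SAR1 GTPase, was at 769.5 to 1362 in MM samples (median 1143), at 952, 773, 828, 1152 and 1214 in Eμ-xbp-1s B cells and at 735, 857, 1050, 1028 and 864 in nontransgenic B cells, and none of its 3 log2 ratios exceeded 0.26. Sar1a, the second SAR1 gene, had log2 ratios of 0.07 to 0.16. A dimmer probe set of Sar1a gave -0.33 for Eμ-xbp-1s over nontransgenic B cells (limma adjusted p = 0.437). In MM samples it gave 0.59 against Eμ-xbp-1s (0.154) and 0.27 against nontransgenic B cells (0.365).

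Sec16a, which marks the ER exit sites where COPII buds, was the other gene whose groups did not overlap. It lay at 561, 629, 625, 546, 423 and 483 in MM samples, at 772.5, 679.8, 487, 677 and 679.9 in Eμ-xbp-1s B cells and at 804.5, 703.5, 701, 696 and 700.4 in nontransgenic B cells. All MM samples were below all nontransgenic arrays, by a log2 ratio of -0.42 (standard error 0.14, adjusted p = 0.0531), and against Eμ-xbp-1s B cells the value was -0.27 (adjusted p = 0.341). The inner coat subunits Sec23a and Sec23b and the outer cage subunits Sec13 and Sec31a had log2 ratios between -0.32 and 0.22 over the 3 comparisons, with all adjusted p-values at or above 0.38. Sec23a, which also holds the UPRE core, lay between 102 and 312 in MM samples, 109 and 232 in Eμ-xbp-1s B cells, and 157 and 182 in nontransgenic B cells.

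In the COPI coat the probe sets of highest mean of the 9 genes tested lay close to zero in B cells. Its 7 coat subunits are Copa, Copb1, Copb2, Copg1, Copz1, Cope and Arcn1. Their log2 ratios by these probe sets ran from -0.09 to 0.15 for Eμ-xbp-1s over nontransgenic B cells. Further probe sets lay farther from zero for Copb2 (0.45), Arcn1 (0.40 and -0.48), Copz1 (-0.39), Arf4 (-0.43 and 0.29) and Arf1 (given below). Those of Copa and Copg1 gave -0.18 and -0.06, and none of these passed the test. Copa, the largest subunit, lay at 502 to 1638 in MM samples (median 1203), at 1753, 1507, 915, 1156 and 1422 in Eμ-xbp-1s B cells and at 1398, 1390, 1416, 1374 and 1277 in nontransgenic B cells. The nontransgenic arrays spanned a narrow range that the other groups enclosed, and the log2 ratio in MM samples against nontransgenic B cells was -0.39 (standard error 0.27, adjusted p = 0.341). Arcn1, the delta subunit, lay at 800.1 to 1203 in MM samples (median 958), at 1316, 1157, 708.5, 1065 and 1189 in Eμ-xbp-1s B cells and at 1063, 1172, 1090, 1084 and 962.5 in nontransgenic B cells. Its 3 log2 ratios were -0.13, -0.12 and -0.01. Copb1 and Copb2, both with a UPRE core in the window, had log2 ratios of 0.01 and -0.09 for Eμ-xbp-1s over nontransgenic B cells (adjusted p = 0.99 and 0.896), and of -0.17 and 0.04 in MM samples against nontransgenic B cells. A second probe set of Copz1 averaged 269 in MM samples and 181 in Eμ-xbp-1s B cells (log2 ratio 0.58, adjusted p = 0.0378), where the brighter one gave 0.12.

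Arf1, the GTPase that recruits COPI, was the brightest gene of the list and the most even within groups. It lay at 3176, 3625, 3432, 3693, 3119 and 2735 in MM samples, at 2801, 2580, 2487, 2638 and 2695 in Eμ-xbp-1s B cells and at 2654, 2587, 2754, 2546 and 2659 in nontransgenic B cells. MM replicates 1 to 5 were above all 10 B cell arrays and replicate 6 was not. The means were 3297 ± 359.1 in MM samples (SD, n = 6), 2640 ± 118.4 in Eμ-xbp-1s and 2640 ± 79.4 in nontransgenic B cells (SD, n = 5 each). The log2 ratio was 0.31 against either group (adjusted p = 0.178 against Eμ-xbp-1s and 0.0946 against nontransgenic B cells), and -0.00 for Eμ-xbp-1s over nontransgenic B cells, with a 95% interval of -0.22 to 0.22. A second tested probe set of Arf1, with group means of 1135 to 1449, gave other values. Its log2 ratio was -0.61 for Eμ-xbp-1s over nontransgenic B cells (limma adjusted p = 0.489). In MM samples it was 0.39 against Eμ-xbp-1s (0.643) and -0.22 against nontransgenic B cells (0.69). Arf4, a related GTPase, lay at 534 to 1332 in MM samples (median 1078), at 1349, 1143, 531, 817 and 1008 in Eμ-xbp-1s B cells and at 1040, 1079, 946, 955 and 852.5 in nontransgenic B cells. The groups of Arf4 overlapped, and its log2 ratios ran from -0.07 to 0.01. Arfgap3, which switches ARF GTPases off, lay at 84.9 to 129 in MM samples, 65.8 to 100.2 in Eμ-xbp-1s and 70.5 to 96.6 in nontransgenic B cells, with a log2 ratio of 0.37 in MM samples against nontransgenic B cells (adjusted p = 0.115). Only MM arrays took it past the level of 100 needed for that test.

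Among the tethers and SNAREs, log2 ratios of the probe sets of highest mean ran from -0.48 to 0.35 over the 3 comparisons. Golga7, a Golgi protein that partners a palmitoyltransferase, lay at 695 to 1214 in MM samples (median 1116), at 1224, 1036, 803, 992 and 877 in Eμ-xbp-1s B cells and at 918, 1001, 929.5, 1042 and 784 in nontransgenic B cells. Stx5a, the syntaxin at the centre of the ER to Golgi SNARE complex, lay at 658 to 916 in MM samples (median 846), at 909.5, 896.5, 958, 971 and 836 in Eμ-xbp-1s B cells and at 890.5, 951.5, 889, 849 and 944 in nontransgenic B cells. For both genes the 3 groups overlapped, and no log2 ratio of these probe sets exceeded 0.18 in size. A dimmer probe set of Stx5a gave -0.25 for Eμ-xbp-1s over nontransgenic B cells (limma adjusted p = 0.738). In MM samples it gave -0.40 against Eμ-xbp-1s (0.46) and -0.66 against nontransgenic B cells (0.0941). Gosr2 (membrin), a SNARE of the same complex, lay at 277 to 688 in MM samples (median 440.0), at 664.5, 584, 638, 639.6 and 461 in Eμ-xbp-1s B cells and at 510.3, 511, 449, 461 and 410.2 in nontransgenic B cells. In Eμ-xbp-1s B cells 4 of 5 arrays were above all nontransgenic arrays, and the log2 ratio of 0.34 had an adjusted p of 0.171. A dimmer probe set of Gosr2 gave -0.18 (limma adjusted p = 0.783). Trappc4, a subunit of the TRAPP tether, lay at 306 to 419 in MM samples (median 345), at 397, 359, 261, 322 and 374 in Eμ-xbp-1s B cells and at 324, 365, 441, 455 and 446 in nontransgenic B cells, with a log2 ratio of -0.25 for Eμ-xbp-1s over nontransgenic B cells (adjusted p = 0.411).

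The remaining SNAREs are Bet1, Ykt6 and Sec22b, and the remaining tether is Golgb1 (giantin). Ykt6 lay at 335, 304, 105, 176.5 and 175 in Eμ-xbp-1s B cells and at 312, 331, 246, 300.2 and 230.0 in nontransgenic B cells. Its replicates 3 to 5 were low in Eμ-xbp-1s B cells, and the interval of its log2 ratio ran from -1.09 to 0.13. Sec22b lay at 385, 367, 392, 282, 233 and 117 in MM samples, and its log2 ratio against nontransgenic B cells was 0.35 (adjusted p = 0.416). Bet1 had log2 ratios of -0.21 to 0.03, and Golgb1 of -0.39 to 0.17.

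Many listed genes were high or low together on the same arrays. Over the 38 genes that could be tested in MM samples, the mean log2 intensity was 8.97, 9.12, 9.19, 8.88, 8.53 and 8.33 in MM replicates 1 to 6, 9.10, 8.98, 8.62, 8.87 and 8.90 in Eμ-xbp-1s B cells, and 8.75 to 8.90 in nontransgenic B cells. MM replicates 5 and 6 and Eμ-xbp-1s replicate 3 were the low arrays, and they also had low Gapdh ratios (0.667, 0.717 and 0.414). Plasma cell genes summed to 3751 and 7759 in MM replicates 5 and 6 and to 9608 to 16260 in the other MM samples. In Eμ-xbp-1s replicate 3 the plasma cell sum was 13630, and it was 10250 to 15150 in the other Eμ-xbp-1s arrays. The part of the Gapdh ratio and of plasma cell content in these low values was not tested. Of the 38 genes, 22 had their lowest MM value in replicate 6 and 11 in replicate 5, and 21 had their lowest Eμ-xbp-1s value in replicate 3. How many of all probe sets were lowest on these arrays was not counted, so a general effect of the array cannot be told from a trait of these genes. Eμ-xbp-1s replicate 4, with a ratio of 0.508, lay within the range of the nontransgenic arrays. The coefficient of variation of a gene within a group had a median of 31.8% in MM samples, 22.3% in Eμ-xbp-1s and 11.4% in nontransgenic B cells. With MM replicates 5 and 6 left out for their low ratios, an alternative chosen after seeing the data, 4 genes passed as higher in MM samples than in nontransgenic B cells, namely Sec24d, Lman1, Mcfd2 and Sec22b, of which Sec24d had a log2 ratio of 1.52 (adjusted p = 0.000193), Lman1 0.97 (0.00833) and Mcfd2 0.91 (0.00301). In that fit 7.39% of all probe sets were higher. With Eμ-xbp-1s replicates 3 and 4 left out in the same way, alone or with these MM replicates, 0 listed genes passed in the other comparisons.

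Some listed genes split by replicate number in both groups of B cells. In 17 genes of the Eμ-xbp-1s and 10 of the nontransgenic arrays, replicates 1 and 2 both stood above replicates 3 to 5, and 8 of these were the same genes: Arf4, Bet1, Lman2, Sar1a, Sec24b, Sec24c, Tmed9 and Ykt6. The opposite order held for 5 and 12 genes, and 5 were shared: Golgb1, Kdelr2, Preb, Sec24a and Sec24d. The share of all probe sets that split in this way was not computed, so the split cannot be called particular to the listed genes. Nothing in the sources says what the numbers stand for. With the number as a block, no listed gene passed for Eμ-xbp-1s over nontransgenic B cells, and the adjusted p was 0.026 for Kdelr1 and 0.0604 for Sec24d.

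**Figure D3:**
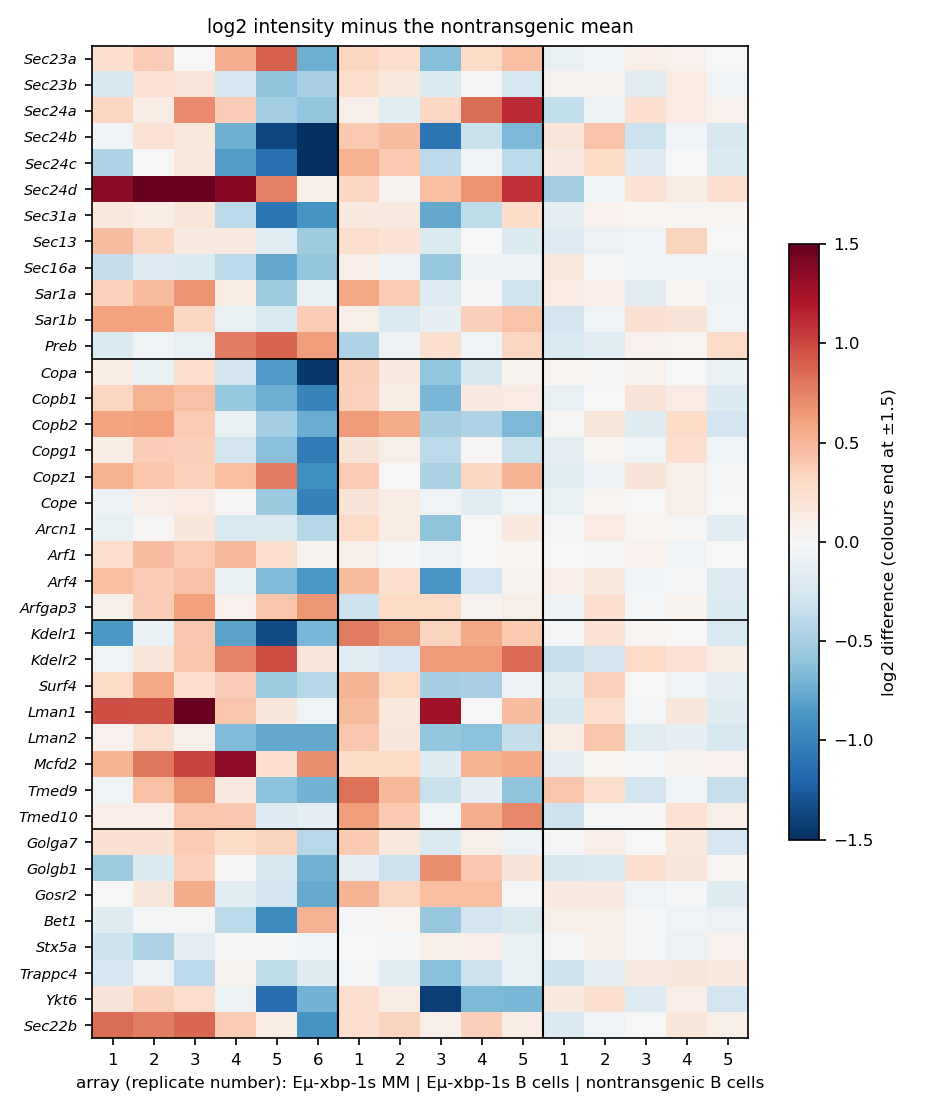
Rows are the 38 genes that could be tested in MM samples, grouped by role (COPII, COPI, receptors, tethers and SNAREs), and columns are the 16 arrays, with MM replicates 1 to 6 at the left, then Eμ-xbp-1s and nontransgenic B cells. Colour is the log2 intensity minus the gene's mean in nontransgenic B cells, with red higher, and blue columns stand out at MM replicates 5 and 6 and Eμ-xbp-1s replicate 3.

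**Figure D4:**
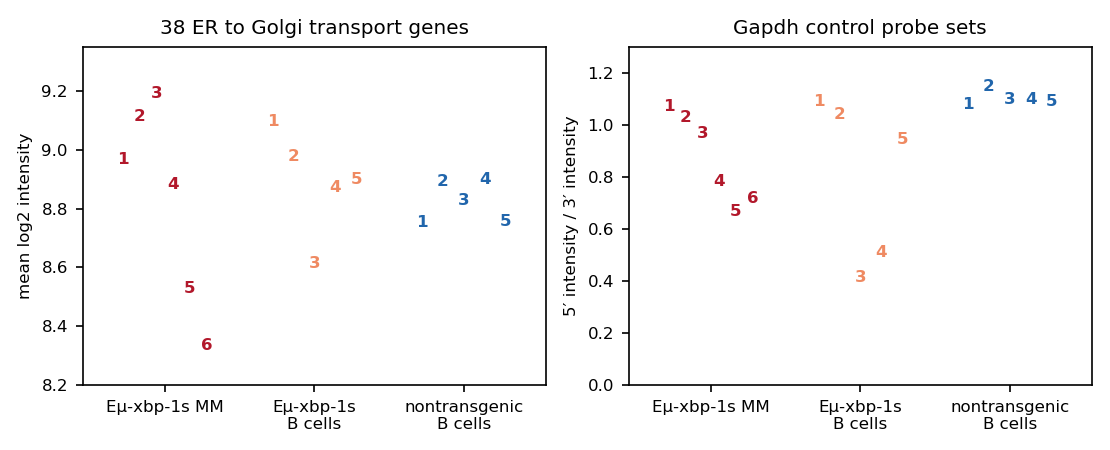
The left panel gives the mean log2 intensity of the 38 genes on each array (digit, replicate number; the axis does not start at 0) and the right panel the 5′ over 3′ ratio of the Gapdh control on the same arrays. MM replicates 5 and 6 (8.53 and 8.33) and Eμ-xbp-1s replicate 3 (8.62) are lowest at the left and lie at 0.667, 0.717 and 0.414 at the right, while Eμ-xbp-1s replicate 4 has a ratio of 0.508 and a mean of 8.87.

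A second list held other genes of the same route, 76 of them with a probe set. Of these, 68 could be tested for Eμ-xbp-1s over nontransgenic B cells and 0 passed, 69 in MM samples against Eμ-xbp-1s B cells with 1 higher and 0 lower, and 68 in MM samples against nontransgenic B cells with 1 higher and 1 lower. Over all genes tested, 3.28% were higher and 0.192% lower in the first comparison, 1.49% and 1.67% in the second and 4.66% and 4.76% in the third, so these counts are at or below the background. The higher gene was Creb3l1 (OASIS), an ER-anchored transcription factor known for driving secretory genes in cells that make collagen. It lay at 144.5, 116, 103, 163, 135 and 148 in MM samples, at 65.3, 55.5, 71.9, 45.1 and 69.8 in Eμ-xbp-1s B cells and at 59.3, 61.8, 62.1, 65.1 and 69.1 in nontransgenic B cells, with no overlap between MM samples and either group. Its log2 ratio was 1.11 against Eμ-xbp-1s (standard error 0.17, limma adjusted p = 0.00274) and 1.07 against nontransgenic B cells (standard error 0.15, adjusted p = 0.000408). In the same MM samples 5 of 6 stromal genes were higher, and a link between these and Creb3l1 was not tested. Only MM arrays took Creb3l1 past the level of 100 needed for the test. All B cell values lay at 45.1 to 71.9, so the size of its log2 ratios rests on dim values. The lower gene was Trappc8, a subunit of the TRAPP tether. It lay at 486, 516.5, 510.4, 406, 359 and 362 in MM samples, at 752, 687, 482, 857 and 810.1 in Eμ-xbp-1s B cells and at 604, 631, 802, 743 and 697 in nontransgenic B cells. Its log2 ratio was -0.67 in MM samples against nontransgenic B cells (standard error 0.15, adjusted p = 0.00956) and -0.70 against Eμ-xbp-1s B cells (adjusted p = 0.0387).

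The genes with the UPRE core in their window, listed or not, were called at shares read here against those of all genes. Of 93 such genes tested for Eμ-xbp-1s over nontransgenic B cells, 1 was higher and 0 were lower, beside 3.28% and 0.192% of all genes, and the median log2 ratio was 0.01. Of 101 tested in MM samples, 2 were higher and 1 lower against Eμ-xbp-1s B cells (median 0.08, all genes 1.49% and 1.67%), and 4 were higher and 3 lower against nontransgenic B cells (median 0.03, all genes 4.66% and 4.76%). The MM counts are near those of all genes. Xbp1, whose spliced cDNA the transgene carries, averaged 2650 ± 1404 in MM samples (SD, n = 6), 2603 ± 460.5 in Eμ-xbp-1s and 2067 ± 250.3 in nontransgenic B cells (SD, n = 5 each). These values are of the brightest of its 4 probe sets, and that probe set passed in none of the comparisons. Whether it reads the transgene was not tested. By RT-PCR and western blot, the study reported more spliced Xbp1 RNA and protein in splenic B cells of younger transgenic mice.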

How the data were processed

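RNA was hybridised to Affymetrix mouse 430 2.0 arrays. The deposited numbers are linear-scale intensities, which the authors computed in dChip (model-based, perfect match minus mismatch) after scaling each array to a baseline array of median brightness. For the tests, values under 50 were set to 50, and the log2 of the deposited values was taken. A probe set was tested if it exceeded 100 on over 20% of the arrays in a comparison, with limma 3.58.1 (lmFit, then eBayes; R 4.3.3) and a separate model for each comparison, and p-values were adjusted by Benjamini-Hochberg over all noncontrol probe sets tested, with a threshold of 0.01. Log2 fold changes of genes near 50 are understated. Presence calls were not used. The number of arrays limits the precision. The script was tested on simulated data. Promoters were searched in Python 3.11.15 (pandas 2.3.3, numpy 2.4.6), and plots were drawn with matplotlib 3.10.9. The listed genes, the other lists and the tests were chosen with earlier results of these data known. Array values are given for the 4 genes of highest mean in each role, and for others picked after their values were seen. Deviations of same-numbered Eμ-xbp-1s and nontransgenic B cell arrays correlated at 0.498, 0.519, 0.21, 0.171 and 0.496, above the limit of 0.1 set for a pairing, but only replicate 2 correlated best with its own number. The sources do not explain the numbers, the tests given first have no block, and the block is an alternative. Alternatives were other floors, no filter, quantile normalization, median scaling, all groups in a single fit, trend and robust variance, array weights, the replicate block, means of probe sets, and arrays left out.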

Additional observations from a re-analysis of the deposited data

Results flagged for a closer look

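In 115 groups of 5 or 6 values, 7 single arrays stood apart from the rest of their group by Dixon's criterion, where chance at 1 in 20 gives about 5.8. Eμ-xbp-1s B cell replicate 3 was low for Sec23a (109.1, the others 200.4 to 232.2), Sec16a (487.1, the others 677.0 to 772.5) and Copb1 (277.1, the others 479.2 to 564.9). MM replicate 6 was low for Copz1 (298.7, the others 718.2 to 972.7) and Golga7 (695.3, the others 1089 to 1214). Both arrays had low Gapdh ratios, 0.414 and 0.717, whose part was not tested. Nontransgenic B cell replicate 1 was low for Sec31a (408.2, the others 461.5 to 473.3) and high for Sec16a (804.5, the others 695.9 to 703.5), with a ratio of 1.08.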

How the results depend on the processing

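The counts of 0 genes became 1 to 5 under some alternatives. Counts of 0 have no direction that could turn. The log2 ratios of some genes that did not pass changed sign between alternatives. For Eμ-xbp-1s over nontransgenic B cells, Kdelr2 (0.35) reached -0.19 and Sec24b (-0.25) reached 0.38. For Eμ-xbp-1s over nontransgenic B cells, 1 gene (Kdelr1) was higher at an adjusted p under 0.05, with quantile normalization and with array weights. Its adjusted p was 0.401 with all 3 groups in a single fit, and above 0.05 without any 1 of 7 of the 10 arrays. In MM samples against Eμ-xbp-1s B cells, 1 gene (Kdelr1) was lower at an adjusted p under 0.05, with median scaling, with all 3 groups in a single fit and with array weights, and 1 (Sec24d) was higher with array weights. In MM samples against nontransgenic B cells, 2 genes (Sec24d and Mcfd2) were higher at an adjusted p under 0.05, with quantile normalization and with all 3 groups in a single fit, 5 (Sec24d, Arf1, Lman1, Mcfd2 and Sec22b) with array weights, 1 (Mcfd2) without MM replicates 4 and 5 together, left out for their high neutrophil and erythroid sums, and 4 without the arrays of low Gapdh ratio, chosen after seeing the data. Array weights also raised the share of all probe sets called higher to 14.0% in that comparison, against 3.95%. Left out 1 at a time, arrays gave 0 to 1 higher in MM samples against nontransgenic B cells (Mcfd2 without MM replicate 5, Sec24d without MM replicate 6), 0 to 1 lower against Eμ-xbp-1s B cells (Kdelr1 without MM replicate 3) and 0 otherwise. With the replicate block, 1 gene (Sec24d, 1.37, adjusted p = 0.00586) was higher in MM samples than in nontransgenic B cells. That fit leaves MM replicate 6 without a partner, and the numbers pair no MM sample by any source. The block changed no other call at the threshold of 0.01, but the adjusted p went to 0.0592 for Kdelr1 in MM samples against Eμ-xbp-1s B cells and to 0.04 for Lman1 in MM samples against nontransgenic B cells. Median scaling moved the median of all probe sets to -0.14 in MM samples against nontransgenic B cells. The cause of these differences was not tested. Kdelr3 and Tmed2 lie below 100 on all arrays, and dim genes are bounded by the floor.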
